A study of Rattus norvegicus with 4 samples.

Results

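Antisense transcription in rat liver was examined through loci that were assembled from the reads, carried no gene name and overlapped a named gene only on the opposite strand. An assembled row with a strand counted as antisense when its span shared at least 1 bp with a named row of the other strand and with none of its own strand. By this rule 405, 566, 544 and 595 rows were antisense among 22303, 24896, 22889 and 23380 assembled rows in the libraries of sevoflurane at 0 h and 6 h and of desflurane at 0 h and 6 h. Of these, 70 loci were found in all 4 libraries with a reciprocal overlap of at least 0.8 in every pair, out of 7390 stranded assembled loci matched in the same way. These 70 loci, which lay against 64 distinct sense genes on 19 chromosomes, are described here and are named after the sense gene, with a number where 1 gene had several. The rule uses position and strand and not the level of a locus, but the match in all 4 libraries went with level. Antisense rows matched in every other library had a median TPM between 5.39 and 6.30, and rows matched in no other between 0.955 and 1.45. At Olr1218 (10 rows), Col1a2 and Arhgap45 (2 rows each) the locus overlapped several named rows of the other strand, and the row with the highest mean TPM was taken as the sense gene. At Olr1218 that highest mean was 0, so the named rows tied and were ranked by length of overlap, then by name.

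The 4 libraries were made from livers of wild type rats, 1 library per group, and their strain, age and sex are not given in the labels. Rats inhaled sevoflurane at 4.5% or desflurane at 6%, both halogenated ethers used as general anesthetics, and were decapitated either when they lost consciousness (0 h, the control) or after 6 h of anesthesia. Every group therefore received an anesthetic, and the 0 h livers are not livers of unexposed animals. Livers at 0 h and 6 h were harvested 6 h apart, so time under the anesthetic and the hour of harvest cannot be told apart. With 1 library per group there is no replicate error, and no difference below has a test. Where 4 values stand in a row, the first pair is sevoflurane at 0 h and 6 h and the second pair desflurane at 0 h and 6 h.

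Antisense transcripts are made from the strand opposite to a gene, and many start near the promoter of that gene, run in from a convergent neighbour or begin inside an intron. Some are long noncoding RNAs that act on the sense gene in cis, through the act of transcription, through chromatin or through pairing with the sense RNA, and others are the ends of ordinary coding genes whose annotation overlaps a neighbour. In liver a few secreted proteins take up much of the RNA. A low-level transcript on the other strand of an abundant gene is then hard to recognise without strand information. A kit that keeps the strand was used here, but the step that gave each row its strand is unknown. A strand was listed for 20073, 20302, 20279 and 20413 of the assembled rows, not for all of them.

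The libraries held between 3.50 and 5.57 Gb of aligned bases, estimated from the deposited coverage and FPKM, and a TPM (the deposited expression value, scaled for transcript length and library size) of 2 matched a mean coverage between 4.72 and 7.28 reads per base. All 7 hepatocyte markers were above a TPM of 2 in every library. The summed TPM of 5 red blood cell markers was 471, 1259, 757 and 1399, that of 5 T and NK cell markers 7.72, 2.96, 5.08 and 3.06. The red blood cell sum was higher and the T and NK cell sum lower at 6 h with both agents, and their part in the values below was not tested. The T and NK cell markers did not all move with their sum. Klrk1, at 3.81, 1.28, 3.34 and 0.907, and Gzmb were lower at 6 h with both agents. Cd3g, at 0.242, 0.305, 0.135 and 0.203, and Cd3e were higher with both. Nkg7 was lower with sevoflurane but higher with desflurane, at 0.942 and 1.51. Of 5 pancreatic acinar markers, Prss1 and Pnlip were at 0 in every library, and the summed TPM of 24.5, 25.6, 24.5 and 30.1 was nearly all Cela1, at 24.5, 25.2, 23.9 and 29.7. Of 4 bile duct markers Krt7 was at 0, and the sum of 7.18, 8.08, 6.61 and 6.70 was mostly Epcam, at 5.47, 7.03, 4.702 and 5.34. In bulk tissue, fewer cells of a type and less RNA per cell cannot be told apart.

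A caution on the level of a locus applies throughout. For single rows the deposited coverage is a fixed multiple of FPKM within a library, but it lay below that line in 125 of the 280 member rows (44.6%), against 46.0% of the rows of all matched assembled loci. A coverage-scaled value (coverage divided by the median coverage per TPM of the library) was therefore computed for each locus after the data had been seen, and is given where it changes a call or a level described here. Calls on coverage alone were made at 7 loci with sevoflurane and at 5 with desflurane. Between the 0 h libraries they were made at 10 loci and between the 6 h libraries at 3. The share of all matched stranded loci called on coverage alone is not given here. Only 19 of the 70 loci lay on the line in every library.

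No genome of the build of the tables (rn6) was used here, so the sequence of the loci themselves is not printed. The sequences shown are RefSeq promoter windows (250 bases before to 50 after the annotated start, assembly GRCr8) of the 4 sense genes that were called in the same direction as their antisense locus, then those of Topors and of Smim27, its neighbour on the other strand, which illustrate a divergent pair. Capitals mark the E-box CACGTG, the cyclic AMP response element TGACGTCA and its core TGACG, read on both strands, so that the core on the minus strand appears as CGTCA and the full element contains the core on each strand.
Osgin1 promoter, chr19:64393651-64393950, plus strand: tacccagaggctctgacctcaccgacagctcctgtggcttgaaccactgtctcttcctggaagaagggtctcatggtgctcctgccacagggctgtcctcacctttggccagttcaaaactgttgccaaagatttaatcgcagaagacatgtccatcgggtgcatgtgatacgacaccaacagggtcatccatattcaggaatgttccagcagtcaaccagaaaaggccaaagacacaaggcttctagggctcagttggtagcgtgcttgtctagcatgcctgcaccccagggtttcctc
Sik1 promoter, chr20:9958597-9958896, minus strand: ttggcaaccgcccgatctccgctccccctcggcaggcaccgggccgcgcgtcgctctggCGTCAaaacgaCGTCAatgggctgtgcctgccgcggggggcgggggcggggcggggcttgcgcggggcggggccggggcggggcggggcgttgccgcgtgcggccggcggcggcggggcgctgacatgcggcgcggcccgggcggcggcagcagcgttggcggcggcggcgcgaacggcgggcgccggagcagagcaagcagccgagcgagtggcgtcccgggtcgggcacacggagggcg
Fmo2 promoter, chr13:77777485-77777784, minus strand: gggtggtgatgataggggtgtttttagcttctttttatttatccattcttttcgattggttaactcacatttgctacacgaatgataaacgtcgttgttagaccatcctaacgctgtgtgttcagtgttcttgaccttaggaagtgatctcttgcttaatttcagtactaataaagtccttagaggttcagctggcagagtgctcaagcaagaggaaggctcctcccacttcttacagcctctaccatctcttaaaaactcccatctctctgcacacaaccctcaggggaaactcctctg
Mob3b promoter, chr5:54534115-54534414, minus strand: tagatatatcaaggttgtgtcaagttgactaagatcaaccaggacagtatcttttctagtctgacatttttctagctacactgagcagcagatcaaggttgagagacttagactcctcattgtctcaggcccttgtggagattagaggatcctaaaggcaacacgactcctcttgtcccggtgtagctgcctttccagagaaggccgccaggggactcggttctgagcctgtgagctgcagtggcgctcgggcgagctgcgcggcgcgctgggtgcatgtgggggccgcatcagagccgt
Topors promoter, chr5:60195930-60196229, minus strand: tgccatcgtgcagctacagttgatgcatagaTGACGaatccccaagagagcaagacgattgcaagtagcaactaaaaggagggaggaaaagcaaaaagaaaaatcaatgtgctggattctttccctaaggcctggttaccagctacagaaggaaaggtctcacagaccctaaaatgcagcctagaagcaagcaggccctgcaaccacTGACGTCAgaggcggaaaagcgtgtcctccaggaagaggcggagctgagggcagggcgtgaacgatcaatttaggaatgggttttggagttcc
Smim27 promoter, chr5:60195429-60195728, plus strand: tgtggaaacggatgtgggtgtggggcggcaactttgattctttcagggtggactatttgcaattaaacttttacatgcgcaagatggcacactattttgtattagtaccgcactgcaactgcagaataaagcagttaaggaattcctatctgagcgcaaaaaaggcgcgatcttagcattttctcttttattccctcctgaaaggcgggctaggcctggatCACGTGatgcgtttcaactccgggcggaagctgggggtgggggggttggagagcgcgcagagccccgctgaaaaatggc

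The windows of Osgin1, Fmo2 and Mob3b held none of the 6 motifs searched, which besides those in capitals were the antioxidant response element core TGACNNNGC, the GC box GGGCGG and the TATA box TATAAA. Sik1, which encodes a kinase known as a target of cyclic AMP signalling, had 2 cores, at positions -191 and -180, and 8 GC boxes in a window of 81.3% G and C. Topors had a full element at -43, and Smim27 an E-box at -29 and 2 GC boxes. Among 33469 rat promoter windows of the same length, 6.42% held the E-box, 1.83% the full element, 21.2% its core, 12.1% the antioxidant core, 33.1% the GC box and 14.2% the TATA box. A match is only a run of letters and not a bound site, and the windows come from another assembly than the loci.

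The loci spanned between 317 bp and 900856 bp with a median of 7657 bp, 33 on the plus and 37 on the minus strand. Their mean TPM over the 4 libraries had a median of 5.73, against 11.6 for all matched stranded loci, 12.3 for loci over a named gene of the same strand and 7.52 for loci over no named gene. The mean was above 10 for 24 loci, above 100 for 5 and below 2 for 4. In 20 loci the highest TPM was less than 1.5 times the lowest. Together the antisense rows of a library, matched or not, held between 1.05% and 1.33% of the TPM of the assembled rows, and between 0.324% and 0.583% without the single strongest locus.

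That locus lay on chromosome 8 (chr8:41701564-41702727, minus strand, rn6) inside Olr1218, an olfactory receptor gene with a listed span of 1013395 bp, and had a TPM of 7601, 7473, 7905 and 6653. All 4 values lay within 1.19 times of each other, and Olr1218 itself was listed at 0 in every library. A span of that size is far longer than an olfactory receptor gene usually is, and the same holds for Olr1059, listed from 9135535 to 16364579 on chromosome 7, which took up 5 of the loci and was also at 0 throughout. Sense genes with a listed span above 200000 bp accounted for 28 of the 70 loci. For these the gene named may lie far from the locus, since the tables give spans and not exons.

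The arrangements were distinguished from the spans. Inside the sense gene lay 42 loci, 12 covered its 5' end, 10 covered its 3' end and 6 spanned it whole. The 6 spanning loci had the highest median of mean TPM, 60.2, against 8.86 over the 3' end, 4.38 inside and 4.36 over the 5' end. They included a locus across Col1a2, a chain of type I collagen (chr4:31134164-31756959, minus strand), at a TPM of 160, 177, 147 and 162, while Col1a2 was at 5.07, 10.1, 5.20 and 6.06. A locus across Llph on chromosome 6 (chr6:125861250-125870115, minus strand) was at 134, 130, 152 and 89.2, with its sense gene between 2.40 and 3.73, and its coverage-scaled value at desflurane 6 h was 73.7. The locus across F2rl2, a protease-activated receptor gene (chr2:26161636-26438822, minus strand), stood at 91.2, 93.5, 85.1 and 89.2, with F2rl2 between 0.186 and 0.6002. These 3 loci were therefore far more abundant than the genes they are named after. The TPM of the Col1a2 and F2rl2 loci varied by less than 1.2 times between libraries, but the coverage-scaled value of the F2rl2 locus was 20.8 at sevoflurane 0 h and between 74.1 and 93.5 in the other 3 libraries.

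**Figure D1:**
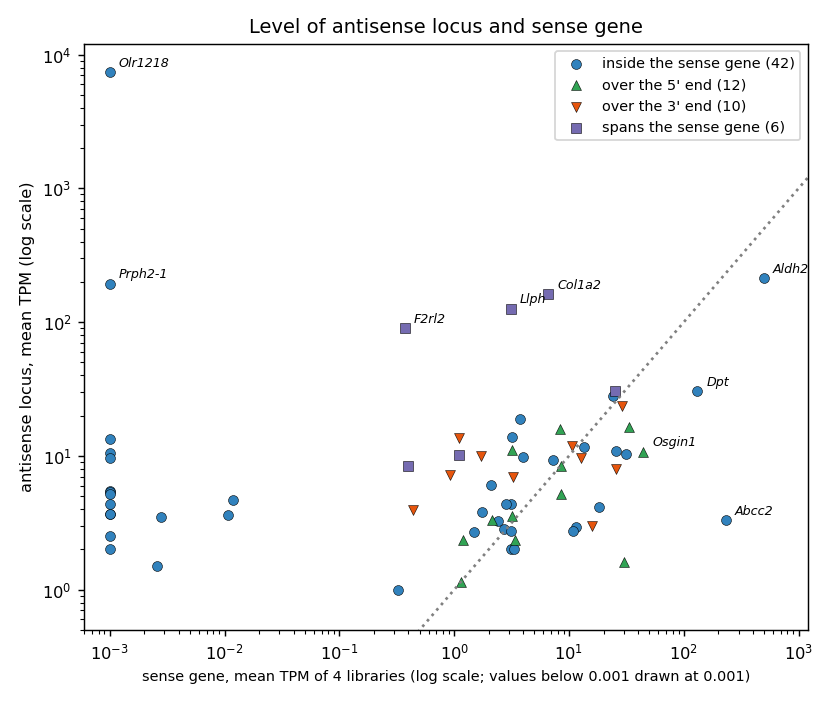
Mean TPM of each of the 70 antisense loci (vertical, log scale) against the mean TPM of its sense gene (horizontal, log scale), with marks for the arrangement of the spans and a dotted line where both are equal. Of the 70 loci, 47 lie above the line, and the locus inside Olr1218 stands far above all others.

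Over the 70 loci the mean TPM of the antisense locus was above that of the sense gene in 47, and 8 of these had a sense gene at 0 in every library. The plot of antisense against sense levels shows the loci on both sides. At its right, below the line of equal levels, are loci on the other strand of abundant liver genes. Aldh2, which encodes the mitochondrial enzyme that oxidises acetaldehyde, had a mean TPM of 496 and an antisense locus of 317 bp (chr12:40498361-40498677, minus strand) with a mean of 212, lying 80 bp from the listed 3' end of the gene. Dpt, the extracellular matrix protein dermatopontin, had a mean of 131 and an antisense locus of 697 bp (chr13:83101306-83102002, minus strand) with a mean of 30.6, also close to its 3' end at 394 bp. Abcc2, the canalicular exporter of bilirubin glucuronides, had a mean of 232 against 3.31 for its antisense locus of 479 bp (chr1:263558927-263559405, minus strand). Inside Nr1h4, the bile acid receptor FXR, a locus of 8020 bp was at 9.26, 11.5, 10.5 and 9.85 while Nr1h4 was at 39.6, 20.6, 31.8 and 33.1. Other well expressed loci with little variation in TPM lay inside Pepd, a dipeptidase gene, at 31.9, 24.9, 32.8 and 22.0, and over the 3' end of Ldhd, a D-lactate dehydrogenase gene, at 23.0, 23.4, 28.2 and 19.5. The coverage-scaled value of the Ldhd locus did vary, from 1.21 to 6.38, with desflurane 0 h the highest.

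A locus inside Prph2, a photoreceptor gene on chromosome 9 (chr9:16314156-16317316, plus strand), was at 228, 214, 176 and 159 although Prph2 was at or below 0.00118 in every library, and a weaker locus in the same gene was at 2.27, 1.64, 2.86 and 1.29. Loci inside Hpse2 (heparanase 2) and Ccdc40 (a protein of ciliary assembly) likewise had sense genes listed at or near 0. The stronger Hpse2 locus was at 4.74, 2.64, 5.62 and 4.43, and the Ccdc40 locus at 5.39, 5.63, 4.702 and 5.97.

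One locus contained a microRNA gene on its other strand. It spanned Mir1896 on chromosome 17 (chr17:45188094-45207016, plus strand) at 30.1, 23.5, 33.8 and 34.9, and the Mir1896 row itself was at 21.3, 29.9, 25.8 and 23.6. The coverage-scaled values of the locus were lower, at 6.51, 5.97, 8.12 and 8.49. That row spans 81 bp, and the value of so short a row in a long-RNA library is not a measure of the mature microRNA. The mature sequence listed by RefSeq is printed to identify it, with its seed (bases 2 to 8) in capitals.
rno-miR-1896: uGGUGGGUgaggaggagg

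The 12 loci over a 5' end were head-to-head with their sense gene. In 8 of them the overlap was short, from 31 bp at Lrrc57 to 786 bp at Vps13d, so both listed starts lay close together. At Topors, a ubiquitin and SUMO ligase gene, the locus overlapped 257 bp in rn6 (chr5:56566247-56566868, plus strand). In GRCr8 the starts of Topors and Smim27, whose promoter windows are printed above, lie divergently with 301 bp shared. Smim27 is absent from the deposited tables under that name. For 11 loci in all, GRCr8 lists a gene that overlaps the sense gene and is absent from the named rows. Its length is within 0.8 of that of the locus, and the loci themselves were not placed in GRCr8. Of these 11 genes, 10 are protein coding and 1 a long noncoding RNA gene. The genes listed on the opposite strand were Smim27 at Topors, Tmem87a at Ganc, Immp2l at Lrrn3, Cebpzos at Cebpz, Zmat5 at Cabp7, Lyset at Gon7 and the long noncoding RNA LOC120093687 at Gga1. No strand was compared for Iqgap2 at F2rl2, Zscan26 at Mir1896, Ints8 at Ccne2 and Anapc16 at Ascc1. This search was made after the values had been seen and was limited to sense spans of at most 200000 bp. Whether these genes and loci are the same transcripts was not tested.

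The first question of the design is what 6 h of sevoflurane changed. A locus was called when its TPM was above 2 in the higher library and differed by more than 2-fold, and changes are also given as differences of log2(TPM + 1). With sevoflurane 9 of the 70 loci were called higher (12.9%) and 8 lower (11.4%), where the same rule called 4.52% and 3.41% of all matched stranded loci higher and lower, 6.53% and 5.56% of loci over no named gene, and 2.46% and 1.76% of named genes. Of the 70 loci, 68 were above the minimum in at least 1 of the 2 libraries. The median change over the 70 was -0.12, against 0.05 over all matched stranded loci. The antisense loci also had the lowest median level of these sets of loci, as given above, and the part of level in their larger share was not tested.

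**Figure D2:**
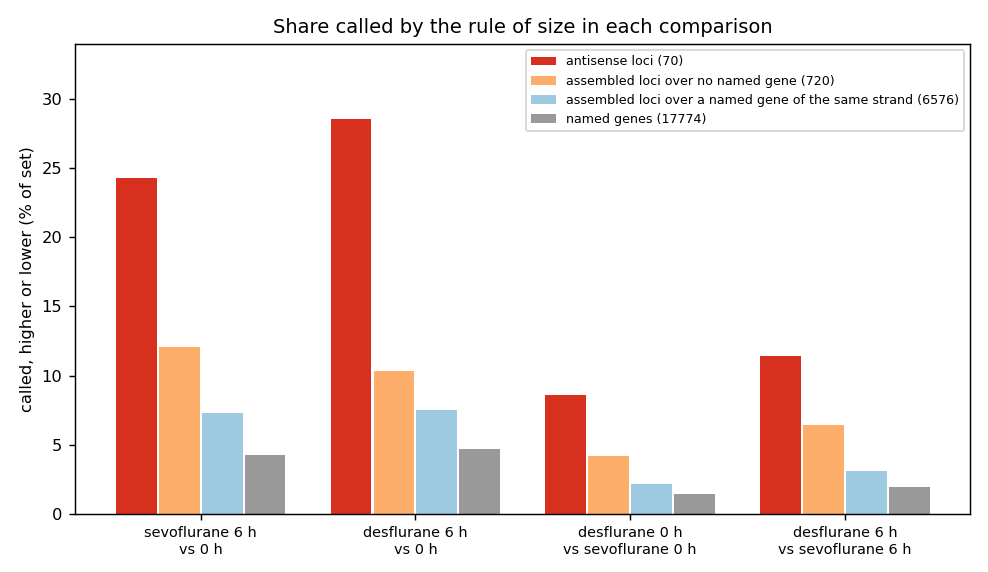
Percentage of each set of loci or genes (bars, number in the set in the legend) called higher or lower by the rule of size in the 4 comparisons of single libraries. The antisense loci have the tallest bar in each comparison, 24.3% with sevoflurane and 28.6% with desflurane. On the coverage-scaled value, not drawn, the antisense shares were 30% with sevoflurane and 25.7% with desflurane. Those of all matched stranded loci were 12% and 13.3%. Between the 0 h libraries the 2 shares were 20% and 7.51%, and between the 6 h libraries 11.4% and 9.35%.

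Those called higher with sevoflurane were led by the locus inside Xpnpep3, which encodes a mitochondrial aminopeptidase (chr7:122650769-122655549, minus strand), at a TPM of 2.01 at 0 h and 9.64 at 6 h, a 4.79-fold difference. A locus of 26401 bp inside Scap, the sterol-sensing escort protein of SREBP (chr8:118570565-118596965, minus strand), was at 1.20 and 5.49 with sevoflurane and at 2.17 and 2.05 with desflurane. Its high value was thus in 1 library only, and Scap itself stayed between 10.2 and 11.8. The locus at Topors was at 8.46 and 21.1 with sevoflurane, but 16.4 and 17.9 with desflurane, while Topors was between 7.71 and 9.15. The low value stood in the sevoflurane 0 h library, and on coverage the Topors call was lost, at 7.78 and 14.1. The weaker Hpse2 locus, at 1.93 and 5.81, also lost its call on coverage, at 1.93 and 2.24. The 5 others were at Pard3, Sik1, Fmo2, Vom2r62 and Olr1059.

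Of the 8 called lower with sevoflurane, the largest difference was at Osgin1, described below, followed by Aldh2, at 312 and 93.0. The locus inside Mrnip, which encodes an interactor of the MRN DNA repair complex (chr10:35683872-35686339, minus strand), was at 9.37 and 3.69. Over the 3' end of Cabp7, a calcium-binding protein gene, the values were 4.998 and 1.83, but 4.85 and 4.14 with desflurane. On coverage the desflurane values were 0.332 and 2.12, which is a call in the higher direction. The 4 others were at Olr1059, Ptprq, Mtmr4 and Arhgap45, and their fold differences were between 2.01 and 2.18, close to the limit of the rule.

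With desflurane 7 loci were called higher (10%) and 13 lower (18.6%), against 3.45% and 4.55% of all matched stranded loci, 3.06% and 7.22% of loci over no named gene, and 2% and 2.68% of named genes. Of the 70, 66 were above the minimum. Libraries scaled by their median ratio over named genes gave 7 higher and 9 lower, so the surplus of lower calls depended on the scale. The median change was -0.25, against -0.10 over all matched stranded loci.

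The largest difference was at Pard3, which encodes a scaffold of cell polarity (chr19:60129419-60143346, minus strand), where the antisense locus was at 3.08 at desflurane 0 h and 19.4 at 6 h, 6.31-fold higher. Next came Sik1, at 5.38 and 20.8, and Aldh2, at 104 and 340. The Dpt locus was at 20.0 and 49.0, and was at 9.91 and 10.7 on coverage, which ended its call. The Xpnpep3 locus was at 1.82 and 4.04, and Fmo2 and Abcc2 followed with ratios of 2.31 and 2.105. Abcc2 itself differed by 1.28-fold.

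Among the 13 called lower with desflurane were Osgin1, an Olr1059 locus at 7.55 and 1.75, and the locus inside Mob3b, a gene of the MOB family of kinase activators (chr5:50477866-50480649, plus strand), at 5.07 and 1.41. A locus over the 3' end of Mtmr4, a phosphoinositide phosphatase gene, was at 6.46 and 1.99. At Nr3c2, the mineralocorticoid receptor gene, the locus over the 5' end was at 4.93, 2.75, 3.77 and 1.799, and at Ca14, a carbonic anhydrase gene, at 2.28, 1.40, 2.20 and 0.523. Of the 13, 7 were also called on coverage, and the calls at Ccne2, Cela1 and the weaker Hpse2 locus were lost. At 3 others the direction turned on coverage. The strongest Olr1059 locus was then at 1.24 and 9.20, a call in the higher direction, Nr3c2 at 0.129 and 1.23 and Ca14 at 0.164 and 0.523, both loci staying below the minimum.

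**Figure D3:**
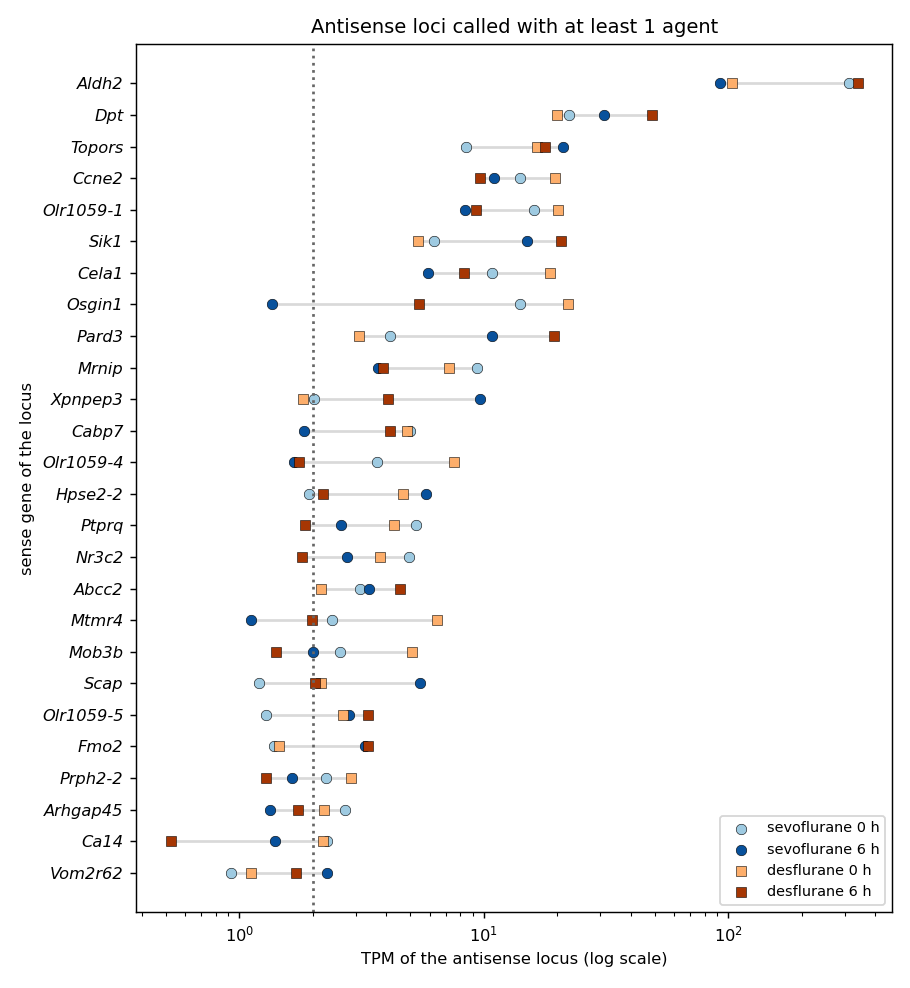
TPM (log scale) of 26 antisense loci called with at least 1 agent, each row a locus named by its sense gene, with circles for the 2 sevoflurane and squares for the 2 desflurane libraries, 0 h pale and 6 h dark. The dotted line is the minimum TPM of 2, and the Aldh2 locus stands apart at the right, with its high values in sevoflurane 0 h (312) and desflurane 6 h (340).

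Of the 27 loci called with at least 1 agent, 8 were called in the same direction with both, 4 higher and 4 lower (each 5.71% of the 70). Calls with both agents were made at 1.85% higher and 1.27% lower of all matched stranded loci, at 1.39% and 2.22% of loci over no named gene and at 1.16% and 0.681% of named genes. At 4 loci, Sik1, Pard3, Xpnpep3 and Fmo2, both 6 h libraries lay above both 0 h libraries. The 4 lower with both were at Osgin1, Ptprq, Mtmr4 and an Olr1059 locus (chr7:15191345-15194633, plus strand), and here both 6 h libraries lay below both 0 h libraries. All 8 were also called on coverage in both comparisons. For each agent alone, the rule on coverage called 5.81% and 6.17% of all matched stranded loci higher and lower with sevoflurane. With desflurane it called 5.14% and 8.19%. These are not shares called alike with both agents, and that share on coverage is not given here. Measured against the 0 h library of the other agent, 6 of the 8 kept both calls, while Ptprq lost its call with sevoflurane and Mtmr4 with desflurane. Both 0 h livers were harvested 6 h apart from both 6 h livers, so for the common direction anesthesia and time of day cannot be told apart. The Ptprq locus, inside a receptor phosphatase gene that was at or near 0, was at 5.27, 2.62, 4.28 and 1.85. Mtmr4 itself stayed between 14.6 and 16.7 while its antisense locus was at 2.39, 1.12, 6.46 and 1.99. The Pard3 locus was at 4.12, 10.8, 3.08 and 19.4 while Pard3 was at 7.77, 6.57, 8.96 and 5.80, which is lower at 6 h with both agents but short of the 2-fold limit.

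Opposite calls were made at Aldh2, lower with sevoflurane and higher with desflurane, and at the weaker Hpse2 locus, higher with sevoflurane and lower with desflurane. Neither pattern was present in the coverage. The Aldh2 locus had coverage-scaled values of 66.6, 93.0, 104 and 85.7, and the Hpse2 locus 1.93, 2.24, 1.84 and 1.49. Aldh2 itself was at 466, 493, 524 and 503, and its largest difference, between the 0 h libraries, was 1.12-fold. On coverage, opposite calls stood at other loci, lower with sevoflurane and higher with desflurane. They were the strongest Olr1059 locus, at 15.2, 1.41, 1.24 and 9.20, and the Cabp7 locus, at 3.47, 1.34, 0.332 and 2.12. How often opposite calls occur over all matched stranded loci is not given here.

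The second question is whether the sense gene moved with its antisense locus. Counted once for each of the 70 loci, the sense gene was called higher at 3 and lower at 3 with sevoflurane (each 4.29%). With desflurane it was called higher at 2 and lower at 2 (each 2.86%). The same rule called 2.46%, 1.76%, 2% and 2.68% of named genes. Olr1059, Prph2 and Hpse2 are counted more than once among the 70. With sevoflurane both members were called in the same direction at Osgin1 and Sik1 and in opposite directions at Mrnip, and 14 loci were called without their sense gene. With desflurane all 4 sense genes called moved in the direction of the antisense locus, at Osgin1, Sik1, Fmo2 and Mob3b, and 16 loci were called without their sense gene. The sense gene had a mean TPM below 1 at 6 of the 17 loci called with sevoflurane and 5 of the 20 with desflurane. Sense genes called alone with sevoflurane were Ccdc125, Erc2 and Ppard, the last a nuclear receptor for fatty acids.

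Osgin1 encodes an oxidative stress-induced growth inhibitor and is known as a target of NRF2. It was at a TPM of 91.4 and 10.5 with sevoflurane and 67.0 and 7.73 with desflurane, 8.66-fold and 8.67-fold lower at 6 h. Its antisense locus of 19492 bp began 2212 bp inside the gene and ran away from its 5' end (chr19:52052947-52072438, minus strand), so the listed start of Osgin1 lay within it. The locus was at 14.0 and 1.36 with sevoflurane and 22.0 and 5.45 with desflurane, 10.3-fold and 4.04-fold lower. Both strands were thus high in both 0 h libraries and low in both 6 h libraries, without overlap.

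Sik1 was at 4.83 and 12.6 with sevoflurane and 3.55 and 21.3 with desflurane. The locus on its other strand (chr20:10668812-10670788, plus strand) was at 6.26 and 15.1, and 5.38 and 20.8. It reached into the 3' end of Sik1 by 42 bp only, and it was no longer a member when an overlap of 100 bp was required. The antisense locus was the higher of the pair in both sevoflurane libraries and at desflurane 0 h.

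Fmo2, a flavin-containing monooxygenase gene, was at 0.388, 1.28, 0.846 and 2.31, and its locus (chr13:80762048-80787640, plus strand), which covered 65.4% of the gene from the 5' end, was at 1.39, 3.26, 1.46 and 3.37. Mob3b was at 4.10, 2.39, 4.33 and 1.73, and its locus at 2.59, 1.997, 5.07 and 1.41. At both, each strand was on the same side of its 0 h library with both agents, though Fmo2 was under the minimum TPM in both sevoflurane libraries. Mrnip gave the contrary case with sevoflurane, with the gene at 1.32 and 3.00 and the antisense locus at 9.37 and 3.69. With desflurane Mrnip was at 1.93 and 2.18, with 7.23 and 3.88 for the locus.

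**Figure D4:**
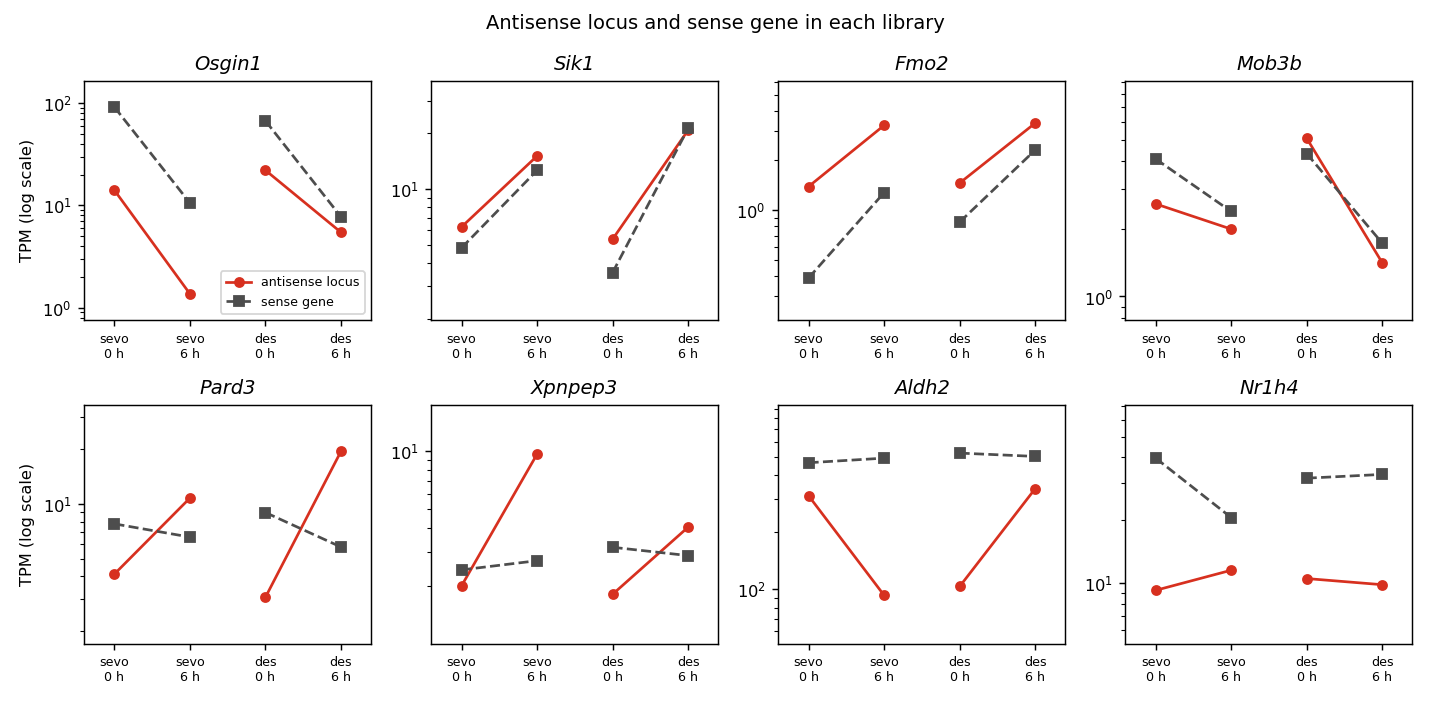
TPM (log scale, a different range in each panel) of the antisense locus (red circles) and its sense gene (grey squares) in the 4 libraries for 8 pairs, with lines joining 0 h to 6 h of the same agent. Both lines slope the same way at Osgin1, Sik1, Fmo2 and Mob3b, while at Pard3, Xpnpep3 and Aldh2 the sense gene stays within 2-fold, as both lines do at Nr1h4.

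Over the 48 pairs with a sense mean TPM of at least 1, the changes of both members had the same sign in 25 with sevoflurane and 30 with desflurane. As a description across pairs, which share their libraries and are not replicates, Pearson's r of the 2 changes was 0.43 with sevoflurane and 0.49 with desflurane. Without Osgin1 and Sik1 it was 0.06 and 0.23, and Spearman's rho over all 48 was 0.21 and 0.36. The relation with sevoflurane rested on these 2 pairs.

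**Figure D5:**
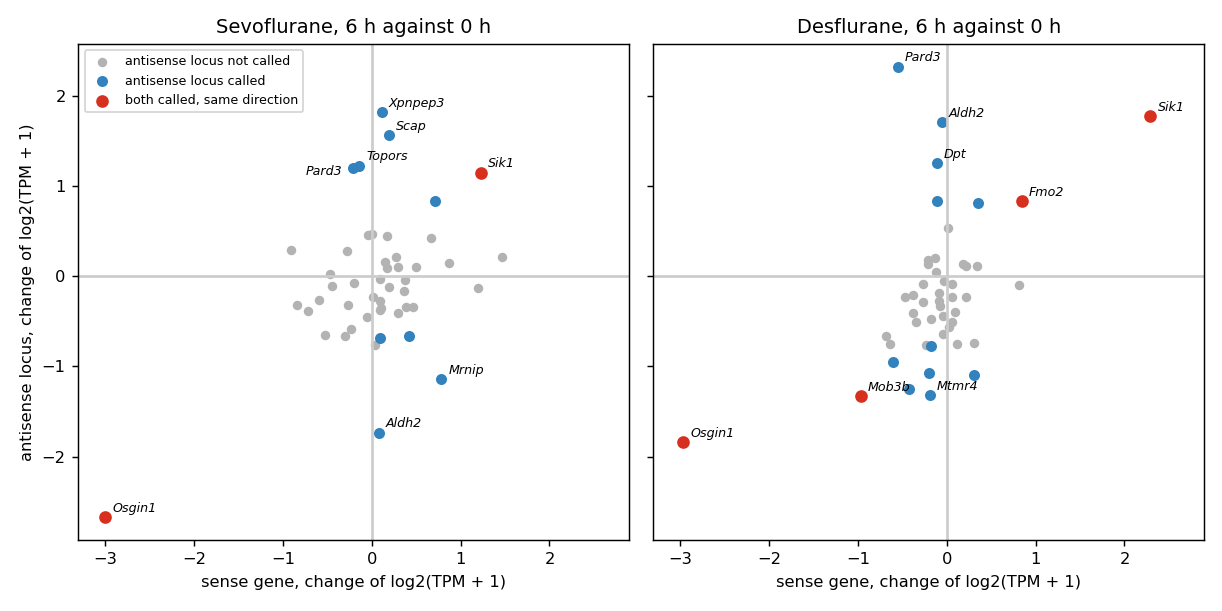
Change of log2(TPM + 1) from 0 h to 6 h of the antisense locus (vertical) against that of its sense gene (horizontal) for the 48 pairs with a sense mean TPM of at least 1, with sevoflurane at left and desflurane at right. Red points, called in the same direction on both strands, are 2 at left and 4 at right, and most other called loci lie close to a sense change of 0.

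Between the agents, desflurane 0 h had 5 loci higher (7.14%) and 1 lower (1.43%) than sevoflurane 0 h, against 1.56% and 0.825% of all matched stranded loci. As far as the labels say, these libraries differ in the agent breathed until loss of consciousness. Higher at desflurane 0 h were loci at Mtmr4, Ciz1 and Hpse2 and 2 at Olr1059, and lower was Aldh2. At 6 h, 3 loci were higher with desflurane than with sevoflurane (4.29%) and 5 lower (7.14%), against 1.45% and 2.06%. Higher were Aldh2, Osgin1, at 5.45 against 1.36, and Cabp7. Among the lower were Scap, Xpnpep3, at 4.04 against 9.64, Sdccag8 and the weaker Hpse2 locus. The Aldh2 and Hpse2 calls were absent on coverage in both of these comparisons, as was the Cabp7 call at 6 h. Measured against the 0 h library of the other agent, 6 of the 9 higher and 4 of the 8 lower calls with sevoflurane were kept, and 5 of the 7 and 6 of the 13 with desflurane.

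Genes of 5 lists were then looked up for antisense rows. None of the 18 circadian clock genes in the tables, of the 30 interferon and immune genes, of the 18 fasting and glucocorticoid genes or of the 33 genes with a described antisense partner was the sense gene of a locus matched in all 4 libraries, and Abcc2 was the only 1 of 168 genes of xenobiotic metabolism (0.595%), against 64 of 17455 named genes (0.367%). In any single library, antisense rows were present at 1 clock gene (Csnk1d), at 5 immune genes, at 5 fasting and glucocorticoid genes, at 3 with a described partner and at 21 of xenobiotic metabolism. As shares these were 5.56%, 16.7%, 27.8%, 9.09% and 12.5%, against 6.15% of all named genes, and the part of gene level in them was not tested. At Csnk1d, the casein kinase that phosphorylates PER proteins, such a row was listed in both 6 h libraries, at 1.57 and 1.21, and in neither 0 h library. At Fkbp5, a glucocorticoid-induced chaperone, rows stood only in the desflurane libraries, between 0.654 and 1.14. At G6pc, the catalytic subunit of glucose-6-phosphatase, a row of 361 bp was listed in both 0 h libraries, at 12.3 and 2.12, with a like coverage of 5.49 and 5.31. A row that is not listed has no value in these tables, and its absence is not a measured 0.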

How the data were processed

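RNA from the livers of 4 rats was sequenced with a strand-preserving total RNA kit, per the labels, and groups were taken from the sample titles. The submitters' processing notes name rn6, HISAT2, SAMtools and StringTie, without versions, and how strand was assigned is not given in the sources used here. As deposited, TPM is handled as a score, since assembled rows alone reach the full total and named rows come on top. The FPKM and the coverage signal were used as deposited by the authors. Loci were classed by span and matched between libraries by mutual best overlap (Python 3.11.15, pandas 2.3.3, numpy 2.4.6), and the steps were tested on simulated data. A call needed a TPM above 2 and a ratio above 2. No p-value was computed. The members, lists and rules were chosen with earlier results of these data known. Genes named in the text were the 10 loci highest in mean TPM, the 5 largest called changes per agent and direction, those called alike with both agents, those opposite to their sense gene, the 5 largest ratios to the sense gene and members of the lists. Others with values were chosen after these had been seen. Other matching limits, call limits, scales and controls were tried. The values of 1 locus that the naming rule selects are not reported here.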

Additional observations from a re-analysis of the deposited data

Results flagged for a closer look

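The locus antisense to Aldh2 differed between the agents on the log2(TPM + 1) scale, with -1.73 for sevoflurane and 1.70 for desflurane. The locus in Hpse2 that was the weaker of its pair (chr1:263029795-263054094) went the other way, with 1.22 for sevoflurane and -0.82 for desflurane. Each effect is a difference between 2 single libraries moving in opposite directions, and the difference between the agents was not tested. On the coverage-scaled value, which was computed after the data had been seen, the Aldh2 changes were 0.47 and -0.27.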

How the results depend on the processing

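The number of loci matched was 97 at a reciprocal overlap of 0.5, 54 at 0.9, 66 with a sense overlap of 100 bp and 74 when short named rows were left out. Loci called numbered 17 with sevoflurane and 20 with desflurane, and 10 and 12 with a minimum TPM of 5, and 5 and 8 with a ratio above 3. Among loci matched at least in the 2 libraries compared, 28 of 129 and 36 of 143 were called. The share over all assembled loci matched in this way is not given here. Between the 0 h libraries the count of 6 became 1 with a ratio above 3, 11 at an overlap of 0.5 and 14 on the coverage-scaled value. Of 136 loci matched in that pair, 17 were called. Between the 6 h libraries 8 became 3 with a ratio above 3, 15 at an overlap of 0.5 and 19 of 155 matched in the pair. Without minimum or ratio, the sign of both changes was the same in 30 pairs with sevoflurane and 38 with desflurane, of 62, and a sense overlap of 100 bp left 1 pair with sevoflurane, without Sik1. Against the other control the median change with desflurane was -0.15 and the weaker Hpse2 locus was reversed with desflurane, at 0.13. Under it Aldh2 moved to -0.15 with sevoflurane and 0.12 with desflurane, and Mtmr4 to -1.82 and -0.18. On coverage, a value added after the data had been seen, Aldh2 was reversed with both agents, at 0.47 and -0.27, and the strongest Olr1059 locus (2.19), Nr3c2 (0.98) and Ca14 (0.39) turned upward with desflurane. No paired analysis was possible because each group has 1 library, and no library could be left out for the same reason. The cause of these shifts was not tested. Low values are limited by depth, most of all in the sevoflurane 0 h library, with 3.50 Gb.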

Other observations

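Several strong antisense rows were not among the 70 loci because their ends differed between libraries. Inside Ubb, a polyubiquitin gene, a row on chromosome 10 was at a TPM of 387, 905, 198 and 125. Its coverage-scaled values were 104, 56.9, 58.0 and 69.4, without the peak at sevoflurane 6 h, and its lowest reciprocal overlap between libraries was 0.733. A second row inside Dpt was at 63.1, 47.5, 67.5 and 118, with an overlap of 0.781. Its coverage-scaled values with desflurane were 16.7 at 0 h and 7.06 at 6 h, lower rather than higher at 6 h. Against Gsta3, a glutathione transferase gene listed at 1.23, 0.746, 2.87 and 6.16, the strongest rows on the other strand, 6602 to 15434 bp long, were at 176, 233, 139 and 348. The glutathione transferase genes are a family of closely related copies, and this assignment is uncertain. Rows opposite Cyp3a2 and Cyp3a23/3a1, 2 cytochrome P450 genes with listed spans over the same place, were at 2.18, 1.56, 2.14 and 4.98, where Cyp3a2 itself was between 947 and 1257. A row of 6582 bp opposite LOC688335 at 1163 and a row of 374 bp inside Itih3 at 257 were each strong in 1 library, sevoflurane 6 h and desflurane 6 h. Their coverage-scaled values were 894 and 25.2.

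Just inside the limit of 0.8 on the reciprocal overlap were the loci at Mob3b (0.810), Abcc2 (0.812) and Ganc (0.818), and just outside were rows at Vav1 (0.799) and Slc35f1 (0.761). The share of antisense rows in a library with no match in any other library was 51.4%, 59.9%, 59.0% and 62.0%, and their median TPM was between 0.955 and 1.45.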
